A study of Mus musculus with 7 samples.

Results

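The 10 genes examined here encode the part of interleukin-1 (IL-1) signalling that lies closest to the receptor: the receptor chains Il1r1 and Il1rap, the adaptor Myd88, the kinases Irak1, Irak2 and Irak4, the regulator Tollip, the ubiquitin ligase Traf6, and Map3k7 and Tab2 of the TAK1 kinase complex. They were chosen by gene symbol, and all 10 were found among the 23329 symbols of the count table and were among the 12480 genes tested. The cells were Beta-TC6, a mouse line that secretes insulin and derives from a beta-cell tumour of transgenic mice expressing a viral T antigen under an insulin promoter. Every library came from wild-type cells that had first been given forskolin, which raises cAMP, at 10 µM for 1 h. The IL1B group (n = 3 libraries) was treated with IL1B, the cytokine that binds this receptor, and the vehicle group (n = 4 libraries) received vehicle. The sources used here state neither the dose and duration of IL1B nor the time of harvest. Polyadenylated RNA was sequenced and counted per gene symbol; levels are given as CPM, counts scaled to the size of the library.

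IL-1 binds the receptor encoded by Il1r1, which then recruits the accessory chain encoded by Il1rap. The paired intracellular domains gather MYD88, which assembles the kinases IRAK4, IRAK1 and IRAK2. TRAF6 then builds ubiquitin chains that TAB2 binds, and this switches on TAK1, the kinase upstream of the IKK complex, p38 and JNK. Signalling through these proteins runs by assembly, phosphorylation and ubiquitination, none of which RNA levels measure. Pancreatic beta cells are known for responding strongly to IL-1.

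Of the 10 genes, 2 rose with IL1B, Myd88 and Il1r1, and none fell (edgeR quasi-likelihood test, Benjamini-Hochberg adjusted p under 0.05 over all genes tested). DESeq2, which called 5.84% of 13918 genes higher and 1.87% lower, and limma-voom, which called 7.69% higher and 3.09% lower, also called no member lower. Across all genes tested, 11.0% passed in either direction, 7.76% higher and 3.25% lower. The 10 log2 fold changes ran from -0.11 to 0.62 with a median of 0.06, beside a median of -0.0087 over all tested genes. IL1B and vehicle libraries did not overlap in 4 of the 10 genes, Il1r1, Myd88, Tollip and Tab2, against 21.0% of all tested genes. In 3 of them IL1B was above vehicle and in Tab2 below it, against 12.1% and 8.83% of all tested genes. For 6 of the 8 genes that did not pass, the 95% intervals of the fold change all lay between 0.848 and 1.16. The other 2, Irak2 and Irak4, had at most 24 counts in a library. Their intervals were wider, 0.864 to 2.02 for Irak2 and 0.622 to 1.53 for Irak4.

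**Figure D1:**
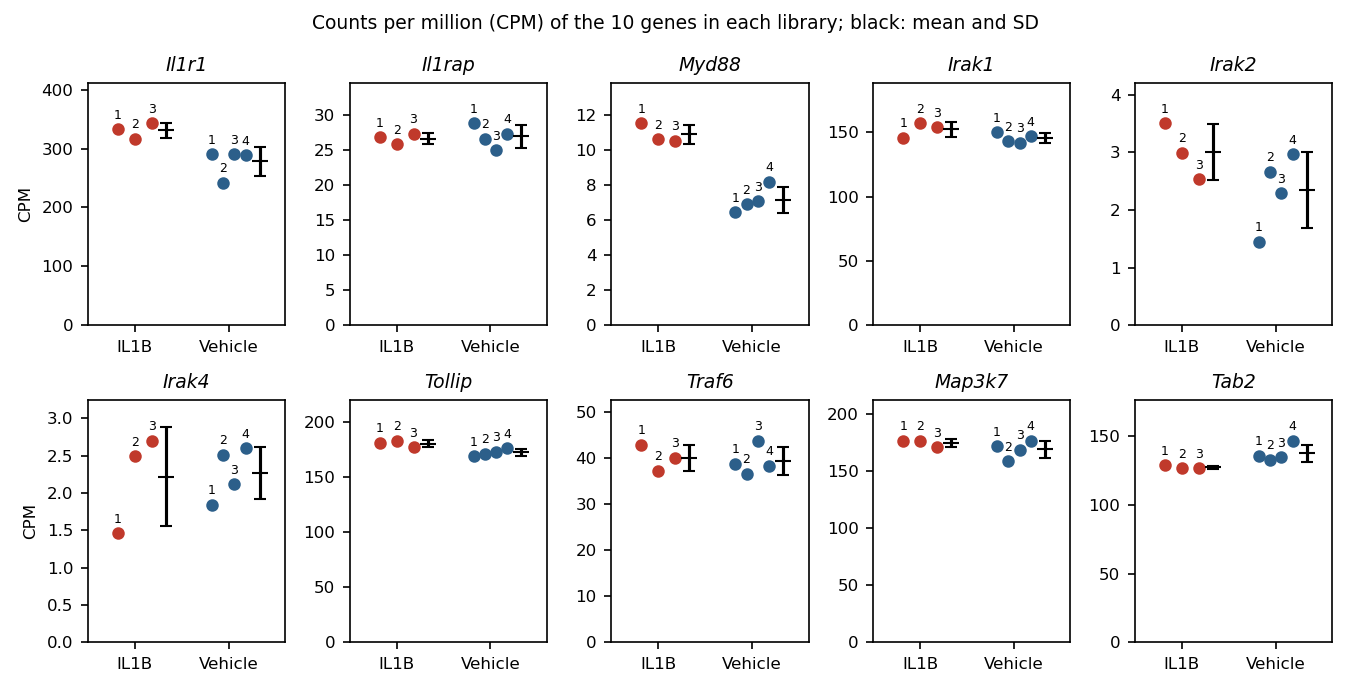
Each panel shows 1 gene, with CPM on a linear axis from 0, a numbered point per library (red, IL1B; blue, vehicle), and the group mean with SD in black. Myd88 lay between 10.5 and 11.5 CPM in the IL1B libraries and between 6.45 and 8.17 CPM in the vehicle libraries, and the Il1r1 point of vehicle library 2 lies below the other 3 vehicle points.

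The promoter sequences of Myd88 and Il1r1 are shown because these genes rose, and those of Irak1 and Map3k7 because each holds a match to the NF-kB binding consensus while the gene did not pass. They are RefSeq windows on GRCm38.p6, read 5′ to 3′ along the gene's own strand, of up to 250 bases before the transcript start, ending where an annotated untranslated region begins. Capitals mark a motif match on either strand. In the window at the proximal start of Il1r1 and in those of Irak1 and Map3k7 the match is to the NF-kB consensus. In Myd88 it is to GAAA, 2 free bases and GAAA again, as found in interferon regulatory factor sites, and the distal Il1r1 window holds no match. The windows are chr9:119340042-119340268 on the minus strand for Myd88, chr1:40224830-40225079 and chr1:40266336-40266585 on the plus strand for the distal and proximal starts of Il1r1, chrX:74023922-74024171 on the minus strand for Irak1 and chr4:31963857-31964096 on the plus strand for Map3k7.
Myd88: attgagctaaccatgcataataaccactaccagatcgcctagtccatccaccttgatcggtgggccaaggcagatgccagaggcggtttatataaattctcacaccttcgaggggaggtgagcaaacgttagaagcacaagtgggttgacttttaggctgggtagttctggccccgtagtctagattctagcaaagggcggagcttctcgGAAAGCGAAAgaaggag
Il1r1 distal start: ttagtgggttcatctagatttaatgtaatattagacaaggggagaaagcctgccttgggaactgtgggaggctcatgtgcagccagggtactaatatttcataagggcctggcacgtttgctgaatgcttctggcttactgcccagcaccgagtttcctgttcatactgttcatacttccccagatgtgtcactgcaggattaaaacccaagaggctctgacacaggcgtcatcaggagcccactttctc
Il1r1 proximal start: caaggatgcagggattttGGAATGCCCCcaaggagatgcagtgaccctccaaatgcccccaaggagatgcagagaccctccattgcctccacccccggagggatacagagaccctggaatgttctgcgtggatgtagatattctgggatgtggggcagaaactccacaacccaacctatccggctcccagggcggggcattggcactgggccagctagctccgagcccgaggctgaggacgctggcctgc
Irak1: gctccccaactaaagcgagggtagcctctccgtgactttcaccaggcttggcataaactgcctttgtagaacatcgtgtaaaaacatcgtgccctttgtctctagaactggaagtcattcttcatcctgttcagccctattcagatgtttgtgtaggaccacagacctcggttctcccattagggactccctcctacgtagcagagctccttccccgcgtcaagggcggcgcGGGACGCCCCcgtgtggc
Map3k7: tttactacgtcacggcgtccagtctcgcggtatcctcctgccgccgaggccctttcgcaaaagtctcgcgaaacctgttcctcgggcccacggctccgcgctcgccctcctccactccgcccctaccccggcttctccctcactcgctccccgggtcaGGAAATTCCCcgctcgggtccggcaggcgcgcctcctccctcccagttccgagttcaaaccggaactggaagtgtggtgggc
The Myd88 match lies 40 to 31 bases before the RefSeq start, and the window itself lies inside the GENCODE gene model, which starts further upstream. The Il1r1 match lies 232 to 223 bases before the proximal start, the Map3k7 match 92 to 83 bases and the Irak1 match 18 to 9 bases before the start. All 10 genes matched the RefSeq table, in 13 windows, since Il1r1, Irak1 and Tab2 each have a pair. Of all 32851 windows in that table, 7.25% held the NF-kB consensus and 2.98% the interferon regulatory factor motif in the 250 bases before the start. Neither the AP-1 motif TGANTCA (6.75% of all windows), the cAMP response element TGACGTCA (1.55%) nor the E-box CACGTG (6.02%), which clock factors bind, was found in any of the 13 windows. No window held matches to more than 1 of the motifs. A match describes these letters and says nothing of binding.

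Il1r1 encodes the signalling chain that binds IL-1 and lies on chromosome 1 (40225080 to 40317257, plus strand, GRCm38). Its level was 333, 317 and 343 CPM in IL1B libraries 1 to 3, against 291, 242, 291 and 289 CPM in vehicle libraries 1 to 4. All 3 IL1B libraries lay above all 4 vehicle libraries, and vehicle library 2 lay apart below the others. The fitted change was 1.19-fold (95% interval 1.08 to 1.31; log2 fold change 0.25, SE 0.07, edgeR adjusted p = 0.0167). The coefficient of variation was 3.90% over the IL1B libraries and 8.74% over the vehicle libraries, where counting error alone gives 2.20% and 2.42%. Without vehicle library 2 the log2 fold change was 0.19 (edgeR adjusted p = 0.0108). The call was lost without IL1B library 1 (edgeR adjusted p = 0.0515) or IL1B library 3 (edgeR adjusted p = 0.0991).

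Il1rap encodes the accessory chain that completes the receptor and lies on chromosome 16 (26581704 to 26730117). It had 26.8, 25.8 and 27.3 CPM in IL1B libraries 1 to 3, against 28.8, 26.6, 25.0 and 27.3 CPM in vehicle libraries 1 to 4. The groups overlapped, and the fold change was 0.986 (95% interval 0.863 to 1.13, edgeR adjusted p = 0.933). Il1rap is known to give membrane-bound and soluble proteins by alternative splicing, which counts per symbol cannot separate.

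Myd88 encodes the adaptor that links IL-1 and Toll-like receptors to the IRAK kinases, and lies on chromosome 9 (119335934 to 119341411, minus strand). It had 79, 64 and 62 counts in IL1B libraries 1 to 3, against 49, 44, 40 and 44 counts in vehicle libraries 1 to 4. On the CPM scale these were 11.5, 10.6 and 10.5 CPM with IL1B, against 6.45, 6.89, 7.05 and 8.17 CPM with vehicle. Every IL1B library was above every vehicle library, and the highest vehicle library was 4. The means were 10.9 ± 0.563 CPM with IL1B and 7.14 ± 0.732 CPM with vehicle (SD, n = 3 and 4), a 1.54-fold change (95% interval 1.24 to 1.90; log2 fold change 0.62, SE 0.15, edgeR adjusted p = 0.0075). It was the largest log2 fold change of the 10, and passed with limma-voom (adjusted p = 0.0079) but not with DESeq2 (adjusted p = 0.0720). Exons of Myd88 share 290 bases with those of Acaa1a on the opposite strand, and whether the counts used strand is not stated in the sources used here, so reads of the shared bases cannot be told apart. Acaa1a, which encodes a peroxisomal thiolase, had 49.6 ± 2.22 CPM with IL1B and 47.2 ± 2.72 CPM with vehicle (SD, n = 3 and 4; edgeR adjusted p = 0.693).

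The IRAK kinases are recruited to MYD88 in sequence, with IRAK4 acting first. Irak1 (chromosome X, 74013914 to 74023918) had 146, 157 and 154 CPM in IL1B libraries 1 to 3, against 150, 143, 142 and 147 CPM in vehicle libraries 1 to 4. The groups overlapped, with IL1B library 1 inside the vehicle range, and the fold change was 1.05 (95% interval 0.961 to 1.14, edgeR adjusted p = 0.573). Irak2 (chromosome 6, 113638467 to 113695026) had 24, 18 and 15 counts in IL1B libraries 1 to 3, against 11, 17, 13 and 16 counts in vehicle libraries 1 to 4. These were 3.50, 2.99 and 2.53 CPM with IL1B, against 1.45, 2.66, 2.29 and 2.97 CPM with vehicle. The fold change of 1.32 had an interval of 0.864 to 2.02 (edgeR adjusted p = 0.465), and 1.89-fold would have been needed to pass. Over 31.4% of its longest transcript Irak2 matches Gm7229, an annotated pseudogene, at 95% identity or more, so its counts are uncertain.

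Irak4 (chromosome 15, 94543643 to 94581815) had 10, 15 and 16 counts in IL1B libraries 1 to 3, against 14, 16, 12 and 14 counts in vehicle libraries 1 to 4. On the CPM scale the highest library was IL1B 3, at 2.70 CPM, and the lowest IL1B 1, at 1.46 CPM, so the vehicle range lay inside that of IL1B. The fold change was 0.975 (95% interval 0.622 to 1.53, edgeR adjusted p = 0.967), and a fitted change of 1.96-fold would have been needed to pass. Irak4 passed the filter on low counts through its vehicle libraries alone, with 2 of 3 IL1B libraries above it. Irak4 shares 395 exonic bases with Twf1 on the opposite strand, which had 105 ± 6.25 CPM with IL1B and 107 ± 2.94 CPM with vehicle (SD, n = 3 and 4).

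Tollip (chromosome 7, 141874813 to 141918507) encodes an adaptor that binds the receptor complex and restrains IRAK1. It had 181, 183 and 177 CPM in IL1B libraries 1 to 3, against 169, 171, 173 and 176 CPM in vehicle libraries 1 to 4. The groups did not overlap, but the difference was small, 1.05-fold (95% interval 0.967 to 1.14), and did not pass (edgeR adjusted p = 0.523). The edgeR test shares its estimate of the spread across genes, and the coefficient of variation of Tollip, 1.66% with IL1B and 1.85% with vehicle, was below the 2.98% and 3.06% that counting error alone gives.

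Traf6 (chromosome 2, 101678429 to 101701669) encodes the ubiquitin ligase that IRAK1 and IRAK2 hand the signal to. It had 42.8, 37.2 and 40.0 CPM in IL1B libraries 1 to 3, against 38.7, 36.5, 43.7 and 38.3 CPM in vehicle libraries 1 to 4. Both the highest and the lowest library were vehicle libraries, and the fold change was 1.02 (95% interval 0.899 to 1.16, edgeR adjusted p = 0.886).

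Map3k7 (chromosome 4, 31964097 to 32023467) encodes TAK1, and Tab2 (chromosome 10, 7905653 to 7956230) the subunit that ties TAK1 to ubiquitin chains. Map3k7 had 177, 177 and 171 CPM in IL1B libraries 1 to 3, against 172, 159, 169 and 177 CPM in vehicle libraries 1 to 4. The groups overlapped, and the fold change was 1.03 (95% interval 0.950 to 1.13, edgeR adjusted p = 0.694). Tab2 had 129, 127 and 127 CPM in IL1B libraries 1 to 3, against 136, 133, 135 and 147 CPM in vehicle libraries 1 to 4. All IL1B libraries of Tab2 lay below all vehicle libraries, but the fold change of 0.926 had an interval of 0.848 to 1.01 and did not pass (edgeR adjusted p = 0.292).

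**Figure D2:**
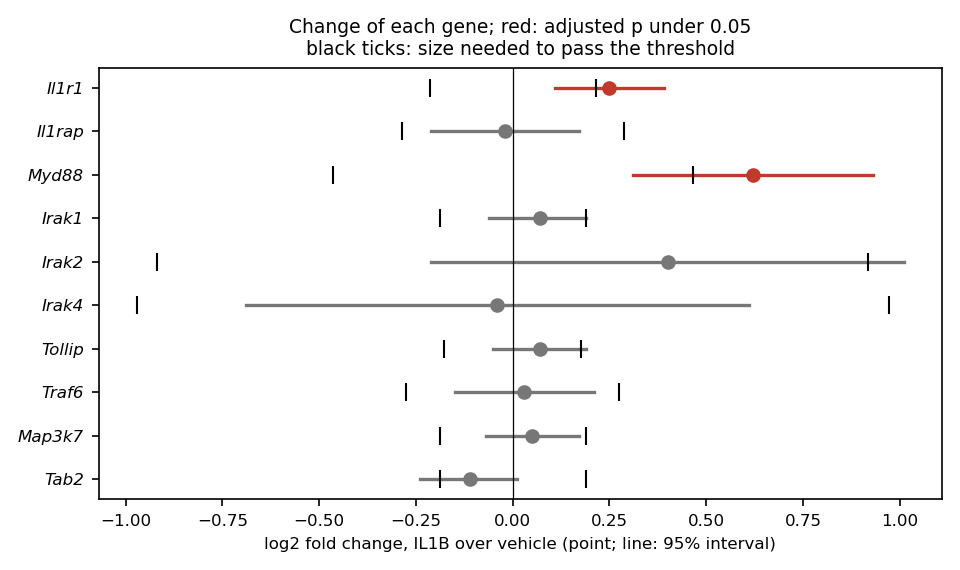
Points give the log2 fold change of IL1B over vehicle for each gene and lines its 95% interval, with black ticks at the size a gene needed to pass the threshold. Myd88 at 0.62 and Il1r1 at 0.25 (red) lie beyond their ticks, and the intervals of Irak2 and Irak4 are the widest.

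The test could resolve small changes in the abundant genes only. The fold change needed to pass was 1.13 for Tollip, 1.14 for Irak1, Map3k7 and Tab2, 1.16 for Il1r1, 1.21 for Traf6, 1.22 for Il1rap and 1.38 for Myd88. These are the sizes at which a gene with the same SE reaches the largest unadjusted p that passed, 0.0055.

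Per length, Il1r1 had the highest mean of the 10 genes and Irak4 the lowest in both groups. Levels between genes are given as CPM per kb of annotated exon unless stated. Il1r1 had 52.1 ± 2.03 CPM per kb with IL1B and 43.8 ± 3.82 CPM per kb with vehicle (SD, n = 3 and 4), above 91.2% of the 11266 tested genes of known length with IL1B and 89.5% with vehicle. Tollip, Irak1, Map3k7 and Tab2 followed in that order, at 35.7, 32.3, 27.2 and 20.8 CPM per kb with IL1B and 34.0, 30.8, 26.3 and 22.4 CPM per kb with vehicle. Traf6 had 5.08 ± 0.355 CPM per kb with IL1B and 4.98 ± 0.394 with vehicle. Below it, Myd88 had 4.22 ± 0.218 CPM per kb with IL1B and 2.77 ± 0.284 with vehicle, and Il1rap 2.34 ± 0.0701 with IL1B and 2.37 ± 0.139 with vehicle. Irak2, at 0.681 ± 0.110 with IL1B and 0.531 ± 0.149 with vehicle, and Irak4, at 0.441 ± 0.133 with IL1B and 0.451 ± 0.0700 with vehicle, were lowest. Irak4 was above 3.4% of tested genes with IL1B and 4.3% with vehicle.

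Neighbours in this order did not overlap between libraries of the same group, with exceptions in vehicle, where Myd88 overlapped Il1rap and Irak2 overlapped Irak4. In the IL1B libraries Myd88 lay above Il1rap in every library, at 4.06 to 4.47 against 2.27 to 2.41 CPM per kb. The order depends on the length used. Per kb of longest transcript, Tab2 lay above Map3k7 in vehicle, at 31.4 against 29.3 CPM per kb, and the vehicle libraries of Il1r1, at 41.6 to 50.1, overlapped those of Tollip, at 44.5 to 46.5. The exons of Il1rap span 11360 bases in all and its longest transcript 4520 bases, and per kb of longest transcript Il1rap, at 5.89 with IL1B and 5.96 with vehicle, lay above Myd88, at 4.42 with IL1B and 2.91 with vehicle.

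**Figure D3:**
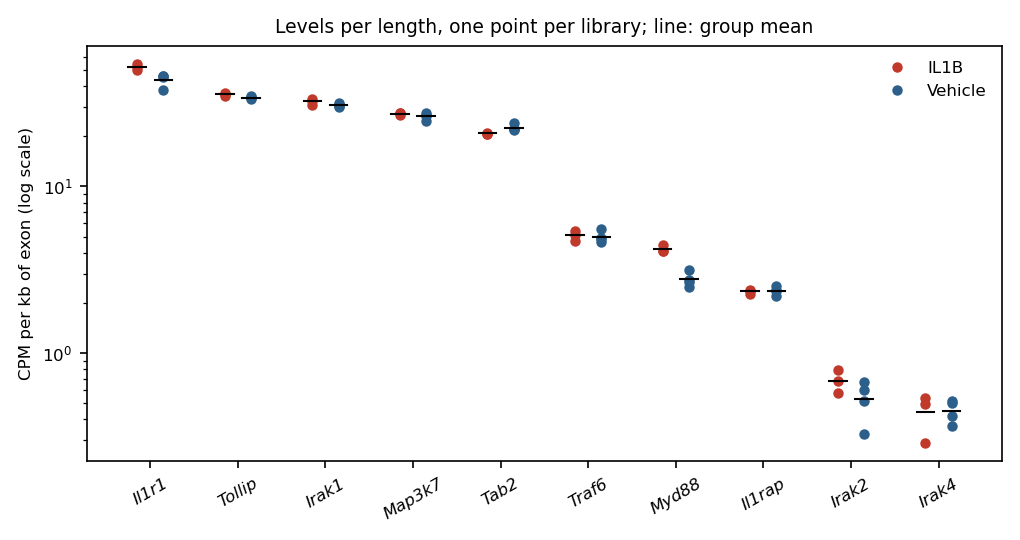
Each point is a library (red, IL1B; blue, vehicle) and the vertical log axis gives CPM per kb of exon, with the genes ordered by vehicle mean. Il1r1, Tollip, Irak1, Map3k7 and Tab2 lie between 20.6 and 53.9 CPM per kb, and Irak2 and Irak4 below 0.793.

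Among the genes around these 10, the 8 lists of pathway genes held 72 genes, of which 42 were tested, 11 rose and none fell, where 7.76% of all tested genes were higher and 3.25% lower. Of the 42, 4 entered the test through their IL1B libraries alone (Il1b, Il18rap, Tlr2 and Zc3h12a), and 3 of these are among the 11; without the 4, 8 of 38 rose. No gene of these lists fell with DESeq2 or limma-voom either. At an unadjusted edgeR p under 0.05, 4 were lower, but the share of all tested genes at that cutoff is not given here. The median log2 fold change was 0.04 over the 42 and 0.02 over the 38, beside -0.0087 over all tested genes. With offsets for GC content and transcript length 3 passed as lower, Mapk14, Tab1 and Sarm1, which were singled out after their values were seen. Under the same offsets 7.06% of all tested genes were lower, so this count is near the share over all genes.

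Ligands were scarce. Of 11 IL-1 family ligands and antagonists, 6 had no count in any library and 2, Il1b and Il18bp, passed the filter; neither was called. Il1b itself, the mRNA of the cytokine added, had 15, 19 and 15 counts in IL1B libraries 1 to 3, against 5, 15, 6 and 8 counts in vehicle libraries 1 to 4. Vehicle library 2, at 2.35 CPM, lay inside the IL1B range of 2.19 to 3.16 CPM. Il1b passed the filter on low counts through its IL1B libraries alone, so its fold change is not given. Il18bp, an IL-18 antagonist, had 3.69 CPM with IL1B and 3.86 CPM with vehicle (edgeR adjusted p = 0.878).

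Among the other chains of the receptor family, Il18rap, the accessory chain of the IL-18 receptor, was the 1 gene of 8 that was tested, and it rose. It had 31, 38 and 25 counts in IL1B libraries 1 to 3, against 7, 1, 2 and 2 counts in vehicle libraries 1 to 4. Vehicle library 1 held 7 of the 12 vehicle counts. Its partner Il18r1 had 9 counts over the IL1B libraries and 15 over the vehicle libraries and was not tested. The decoy receptor Il1r2 was also below the filter, with 34 counts over the IL1B libraries and 26 over the vehicle libraries. Of the Toll-like receptors and their co-receptors, 3 of 14 were tested and Tlr2, a sensor of bacterial lipoproteins that also signals through MYD88, rose. Tlr2 had 67, 55 and 53 counts with IL1B, against 11, 5, 5 and 2 counts with vehicle. Il18rap and Tlr2 passed the filter on low counts through their IL1B libraries alone, so their fold changes are not given.

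Of 14 tested genes that work beside the IRAKs, TRAF6 and TAK1, 2 rose and none fell. Over all tested genes, 7.76% were higher and 3.25% lower. Tifa, an adaptor that brings TRAF6 together, had 9.91, 9.64 and 9.95 CPM with IL1B, against 2.11, 2.51, 3 and 2.04 CPM with vehicle, a 4.08-fold change (log2 fold change 2.03, SE 0.19, edgeR adjusted p = 2.3e-07). Sqstm1, which encodes the ubiquitin-binding scaffold p62, had 1132 ± 91.1 CPM with IL1B and 743 ± 26.3 CPM with vehicle (SD, n = 3 and 4; 1.52-fold, edgeR adjusted p = 2.2e-07). Over the 14 genes the median was -0.04 on the log2 scale. None of 3 tested adaptors that share the TIR domain of MYD88 passed. Ticam1, the adaptor of TLR3, had 19.0 CPM with IL1B and 17.5 with vehicle (edgeR adjusted p = 0.608). Sarm1, which encodes an NAD-cleaving enzyme, had 17.7 with IL1B and 21.4 with vehicle (edgeR adjusted p = 0.175).

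Downstream of TAK1, the 3 genes of the IKK complex did not pass. Chuk and Ikbkb encode its kinases: Chuk had 131 CPM with IL1B and 132 CPM with vehicle (edgeR adjusted p = 0.927), and Ikbkb 57.4 CPM with IL1B and 50.4 CPM with vehicle (edgeR adjusted p = 0.149). On the p38 and JNK branch, 3 of 10 tested genes rose, and all 3 are known as p38 genes: the p38-activating kinases Map2k3 and Map2k6 and the p38 isoform Mapk11. Map2k3 had 52.0, 61.5 and 51.6 CPM with IL1B, against 32.8, 34.0, 36.8 and 34.7 CPM with vehicle (1.59-fold, edgeR adjusted p = 1.2e-05). Map2k6 had 18.4, 17.5 and 21.1 CPM with IL1B, against 10.3, 10.5, 7.76 and 10.6 CPM with vehicle (1.93-fold, edgeR adjusted p = 3.5e-05). Mapk11 had 11.1, 11 and 8.43 CPM with IL1B, against 4.48, 4.70, 5.64 and 4.08 CPM with vehicle (2.16-fold, edgeR adjusted p = 1.5e-04). Groups did not overlap in any of the 3, which were picked for having passed. They did not overlap either in Mapk14 and in the JNK gene Mapk8, named after its values were seen, where IL1B lay below vehicle. Mapk8 did not pass (edgeR adjusted p = 0.265). Of all tested genes, 7.76% passed as higher, and groups did not overlap in 12.1% with IL1B above and 8.83% with IL1B below. Mapk14, the main p38 isoform, named after its values were seen, had 72.9, 70.6 and 74.9 CPM with IL1B, against 80, 81.7, 84.1 and 85.0 CPM with vehicle, and did not pass (log2 fold change -0.18, SE 0.07, edgeR adjusted p = 0.0898). It passed as lower with upper-quartile scaling (edgeR adjusted p = 0.0491) and total-count scaling (edgeR adjusted p = 0.0431). It passed as lower with the GC and length offsets too (edgeR adjusted p = 0.0077). A difference between p38 and JNK genes was not tested.

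Of 6 tested deubiquitinases and feedback inhibitors 4 rose, where 7.76% of all tested genes were higher. Log2 fold changes were 3.94 for Nfkbia, which encodes the NF-kB inhibitor IκBα, and 4.14 for Tnfaip3, which encodes the ubiquitin-editing enzyme A20. Tnip1, whose product binds A20, had 1.61 (SE 0.07), and the edgeR adjusted p was 2.9e-12 or lower for each of these. Zc3h12a, an RNase gene, had 26, 25 and 36 counts with IL1B, against 9, 5, 3 and 4 counts with vehicle. Zc3h12a passed the filter on low counts through its IL1B libraries alone, so its fold change is not given. It is counted among the 4 that rose, so that count rests in part on how it entered the test.

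**Figure D4:**
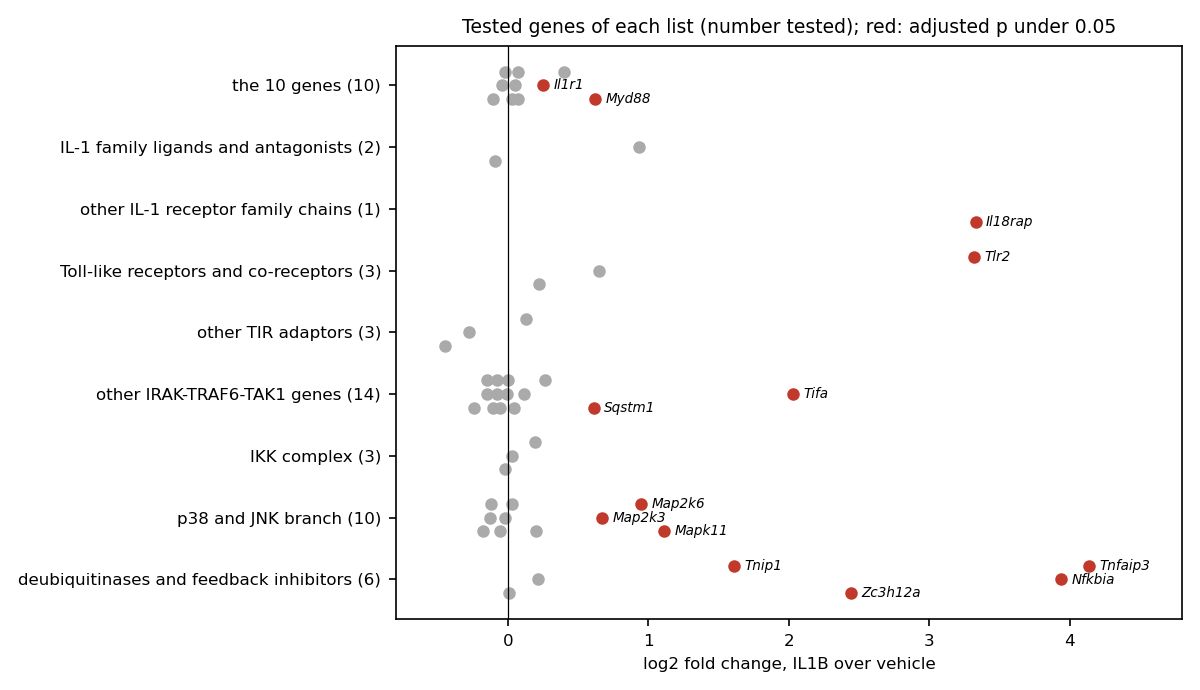
Each point is a tested gene placed by its log2 fold change of IL1B over vehicle, in rows for the 10 genes and for the 8 lists, with genes past the threshold in red and named. The 10 genes lie between -0.11 and 0.62, while Tnfaip3 reaches 4.14. Il18rap, Tlr2 and Zc3h12a, in red, passed the filter on low counts through their IL1B libraries alone.

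The genes whose pattern over the 7 libraries was most like that of the 2 members that rose were found by Euclidean distance between log2 CPM values centred on the vehicle mean. Nearest to Myd88 were Lpin1 (distance 0.0817; 1.49-fold, edgeR adjusted p = 2.4e-05), a phosphatidate phosphatase gene, Cdkn1a (0.165; 1.46-fold, edgeR adjusted p = 4.8e-06), the cell cycle inhibitor p21, and Fam53c (0.187; 1.55-fold, edgeR adjusted p = 2.3e-05). Nearest to Il1r1 were Daam1 (distance 0.0850; 1.19-fold, edgeR adjusted p = 0.0258), a formin gene, and Slc4a7 (0.0863) and Abhd2 (0.0895), which did not pass (edgeR adjusted p = 0.0557 and 0.0648). Over the vehicle libraries the SD was 11.1 CPM for Daam1, against a mean of 117 CPM. The distance takes in the difference between IL1B and vehicle, so the fold changes and calls of the nearest genes largely follow from how they were chosen. All were measured in the same 7 libraries, and likeness here is a description only.

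The libraries held 6007723 to 6969745 counts with IL1B and 5335607 to 7513934 counts with vehicle. Vehicle library 2 stood apart from its group: its deviations from the group mean had a Spearman rho of -0.54 with transcript length across genes, which are not independent, against 0.21 to 0.30 in the other vehicle libraries and -0.02 to 0.02 in the IL1B libraries. The chi-square per degree of freedom between libraries of a group was 3.70 to 4.68 for pairs with vehicle library 2, against 1.51 to 1.58 for the other vehicle pairs. IL1B library 2 also stood apart, at 4.04 and 2.79 with IL1B libraries 1 and 3, against 1.71 between those. Without both second libraries the log2 fold change was 0.22 for Il1r1 (edgeR adjusted p = 2.7e-04) and 0.62 for Myd88 (edgeR adjusted p = 0.0164). Beta-cell markers were abundant, with a sum over 10 markers of 38220 to 39605 CPM with IL1B and 34395 to 40043 CPM with vehicle. Of these markers 3 fell, Pdx1, Mafa and Neurod1, where 3.25% of all tested genes were lower. The rest did not pass, with fold changes of 1.08 for Ins1, 1.06 for Ins2, 1.1 for Iapp and 1.13 for Chga. Those of Nkx6-1, Slc2a2 and Pcsk1 were 0.908, 0.898 and 0.949. The 8 leukocyte markers summed to 3.71 to 5.10 CPM with IL1B and 3.34 to 4.85 CPM with vehicle, and the defining marker Ptprc had 9 counts over the IL1B libraries and 8 over the vehicle libraries. The 4 endothelial markers, all below the filter on low counts, summed to 3.21 to 4.65 CPM with IL1B and 1.49 to 2.82 CPM with vehicle, without overlap. Of them only Pecam1 did not overlap between groups, with 41 counts over the IL1B libraries and 17 over the vehicle libraries. In the same order Cdh5 had 20 and 30 counts, Kdr 4 and 2, and Tek 10 and 10. The part of these markers in the results for Il1r1, Myd88, Tlr2 and Il18rap was not tested. The 5 stromal markers summed to 2.91 to 5.49 CPM with IL1B and 4.54 to 7.05 CPM with vehicle, and the 6 exocrine or duct markers to 4.89 to 6.48 CPM with IL1B and 4.46 to 7.52 CPM with vehicle, with no count in any library for the acinar enzymes Cpa1, Prss1 and Amy2a5. The 5 markers of other islet cells summed to 531 to 585 CPM with IL1B and 568 to 629 CPM with vehicle, and neither of the 2 tested, Gcg and Sst, passed. In bulk RNA, fewer cells of a type and less RNA per cell cannot be told apart.

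**Figure D5:**
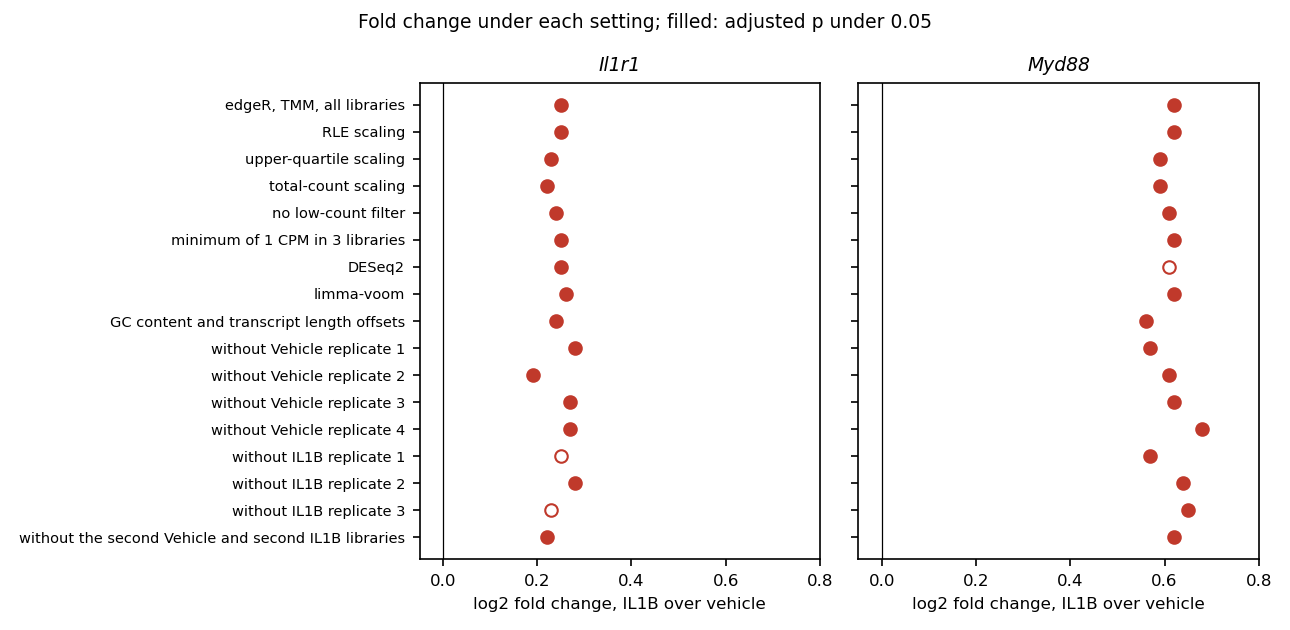
Each row is a setting of the analysis and each point the log2 fold change of IL1B over vehicle, filled where the adjusted p was under 0.05. Il1r1 ran from 0.19 to 0.28 and missed the threshold without IL1B library 1 or 3, and Myd88 ran from 0.56 to 0.68 and missed it with DESeq2.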

How the data were processed

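Per the labels, RNA was polyadenylated RNA of Beta-TC6 cells grown in DMEM with 15% serum, made into libraries with a NEBNext Ultra II kit. The authors' deposited table holds raw, whole-number counts by gene symbol. Per the submitters' processing notes, the build was mm10 and STAR and RSEM are among the tools named, without roles. The counter, its annotation, its strand setting and its handling of reads that match several genes: not given in the sources used here. This table has 0 columns of other series. Its vehicle columns match the sample titles. Its IL1B columns are numbered 1 to 3 where the titles give 1, 3 and 4, so they were assigned to the group only and keep the table's numbers. Separate cultures are not stated, so the spread behind each p-value may be technical. Libraries of a group differed by more than sampling noise (chi-square per degree of freedom 1.51 to 4.68), and all 7 were kept. The share of lower calls under the offsets and the list counts without genes that passed the filter through IL1B libraries alone were added after seeing the data.

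The test was that of edgeR 4.0.16 under R 4.3.3 (filterByExpr, TMM scaling, quasi-likelihood F test, no covariate, adjusted over 12480 genes). CPM use TMM-scaled library sizes over tested genes. Intervals are the fitted fold change plus or minus its SE, taken from the F statistic, times the t quantile. Exon lengths and coordinates are GENCODE M21 on GRCm38, the assembly of mm10; 89.6% of symbols had 1 gene model. Members, lists and tests were chosen with earlier results of these data known. The text names the 10 members, list genes past the threshold (in lists without one, up to 2 of the highest) and the 3 nearest genes of each member that passed. Alternatives tried were scaling by upper quartile, RLE or total count, other filters, DESeq2 1.42.0, limma-voom (limma 3.58.1), GC and length offsets, and leaving out libraries. The edgeR script was tested on simulated data. Counting error limits genes of few counts: 3 counts equal 0.395 to 0.557 CPM.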

Additional observations from a re-analysis of the deposited data

Results flagged for a closer look

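The Il1r1 level in vehicle library 2, 242 CPM, lay far below the other 3 vehicle libraries, at 289 to 291 CPM. The Map2k6 level in vehicle library 3, 7.76 CPM, lay far below the other 3, at 10.3 to 10.6 CPM. These 2 came from 21 sets of 4 vehicle values tested for a library far from the rest, where chance gives about 1 in 20 (1.05).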

How the results depend on the processing

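Over all genes, 406 were lower by edgeR, against 260 with DESeq2, 881 with GC and length offsets, 676 without vehicle library 2 and IL1B library 2 together, and 252 to 589 with 1 library left out, the lowest without IL1B library 3. The count of members that rose was 2, and 1 with DESeq2, where Myd88 was lost; with 1 library left out it was 1 to 2, with Il1r1 lost without IL1B library 1 or 3. Of the pathway genes none fell, against 1 with upper-quartile scaling, 1 with total-count scaling and 3 with GC and length offsets. Ranked per kb of longest transcript in place of exon, 6 of the 10 members kept their place, and all 10 did with any 1 library left out. Log2 fold changes near 0 changed sign: Il1rap to 0.02 without vehicle library 1 and 0.0019 without IL1B library 2 (range -0.05 to 0.02 with 1 library left out); Irak4 to 0.03 without vehicle library 2 or 4 and 0.21 without IL1B library 1 (range -0.20 to 0.21); Traf6 to -0.0019 with total-count scaling, -0.00054 without vehicle library 2 and -0.02 without IL1B library 1 (range -0.02 to 0.08); Il18bp to 0.05 without vehicle library 1 and 0.01 without IL1B library 1 (range -0.16 to 0.05); Chuk to 0.02 without vehicle library 3 and 0.01 without IL1B library 1 (range -0.05 to 0.02); Acaa1a to -0.0037 with the offsets. The cause was not tested. Daam1 lost its call with total-count scaling and without any 1 of the IL1B libraries (edgeR adjusted p 0.0518 to 0.0963). Of the 11 pathway genes that rose, 3 had passed the filter on low counts through their IL1B libraries alone. The other 8 kept direction and threshold in all 16 alternatives. No paired analysis was possible because the IL1B columns of the table cannot be tied to the numbered sample titles. Depth limits Irak2 and Irak4, which had 10 to 24 counts per library.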
